A study of Mus musculus with 8 samples.

Results

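The steady-state transcript levels of Ly-6C-high monocytes were described over all 8 samples of the series, 4 sorted from blood and 4 sorted from spleen, as 1 set and not as a contrast of tissues. The samples were chosen by their labels, with no measured value, and they are 8 of the 8 samples. The mice were female C57BL/6 animals of 8 to 12 weeks, fed chow, healthy and untreated, so both groups share strain, sex, age and diet. Cells were sorted as high for CD11b and Ly-6C, with cells that carried antigens of lymphocytes, NK cells and neutrophils (CD90, B220, NK1.1, CD49b, Ly-6G) or of more mature phagocytes (CD11c, I-Ab, F4/80) left out. Per the design text both tissues came from each of 4 mice, but no label ties a sample number to a mouse. RNA from small sorted samples was amplified before labelling and hybridized to 1-colour arrays, so the levels are those of amplified cDNA.

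Ly-6C-high monocytes are the classical, inflammatory subset of mouse monocytes. They leave the bone marrow through the chemokine receptor CCR2, circulate, enter inflamed tissue and can become macrophages there, and the spleen holds a reserve of them. As phagocytes they are known for lysosomal enzymes, Fc receptors, the NADPH oxidase and a motile actin cytoskeleton.

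Levels are log2 values of the authors' table, and each gene is represented by its brightest probe with at least 7 values among the 8 samples. This gave 27408 genes from 39996 of 41174 probes. A level of 6.8, from which nearly all probes were well above background on the scanner, was taken as the background level. Of the genes, 13773 (50.3%) reached it on every array with a value, 7353 (26.8%) on some and 6282 (22.9%) on none. The median gene had a mean level of 7.43, with 4791 genes at 10 or more, 1366 (4.98%) at 12 or more and 163 at 14 or more. Any 2 samples correlated by 0.88 to 0.92 over 12406 genes that reached the background level in all of them, a range that was like within blood (0.89 to 0.92), within spleen (0.88 to 0.91) and between the tissues. A level is the brightness of a probe, which also depends on the probe, so the ranks below are ranks of probes and not of copies per cell. The scanner files of blood 1, 2 and 3 hold other arrays than the table's columns. Scanner levels of genes come from the 5 matching arrays, blood 4 and spleen 1 to 4. Some alternative runs at the end used all 8 files instead.

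The 5 genes that mark the cell were bright in every sample with a value. Ccr2, the receptor for marrow exit, had a mean of 13.92 ± 0.32 (SD, n = 7): 14.47, 14.05, 13.89 and 13.97 in blood 1 to 4, and 13.87, 13.75 and 13.43 in spleen 1, 2 and 4. Blood 1 was highest and spleen 4 lowest. With no value in spleen 3, the tissues did not overlap, but blood 3 (13.89) and spleen 1 (13.87) were nearly equal. Of all genes tested for a tissue difference, 3.23% did not overlap. Fn1, which encodes fibronectin, was 14.86, 14.39 and 14.18 in blood 1, 2 and 4, with 14.29, 14.05, 13.76 and 13.65 in spleen, so that the tissues overlapped. Ly6c1, a gene of the Ly-6C antigen, was 12.41, 13.08, 12.74 and 13 in blood, with 12.89, 12.76, 11.96 and 12.29 in spleen. The lowest value, in spleen 3, was still far above the background level. Csf1r, the receptor for the growth factor that sustains monocytes, was 13.22 ± 0.39 (SD, n = 8), and Itgam, which encodes CD11b, was 12.11 ± 0.14.

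The transcripts of antigens the sort selected against differed widely in level. Thy1 (CD90), Itga2 (CD49b) and Klrb1c (NK1.1) had means of 6.60, 6.39 and 6.53. Thy1 passed the background level in spleen 3 alone, Itga2 in spleen 4 alone and Klrb1c in no sample. Adgre1, the gene of F4/80, was bright instead, at 13.10 ± 0.28 (SD, n = 8), as was Ptprc at 14.40 ± 0.18, whose probe does not separate B220 from the other forms of CD45. H2-Ab1, a chain of I-A, was 13.06, 13.27, 12.35 and 13.04 in blood, with 12.25, 14.06, 13.23 and 14.08 in spleen, with spleen 2 and 4 highest and spleen 1 lowest. Itgax, the gene of CD11c, was 6.68, 7.36, 8.54 and 7.0 in blood, with 8.57, 9.42, 8.62 and 10.19 in spleen, so spleen 1 and spleen 3 lay close to blood 3. No probe could be matched to Ly6g or Ly6c2 by name. In a sorted sample, fewer cells of a type and less RNA per cell cannot be told apart.

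**Figure D1:**
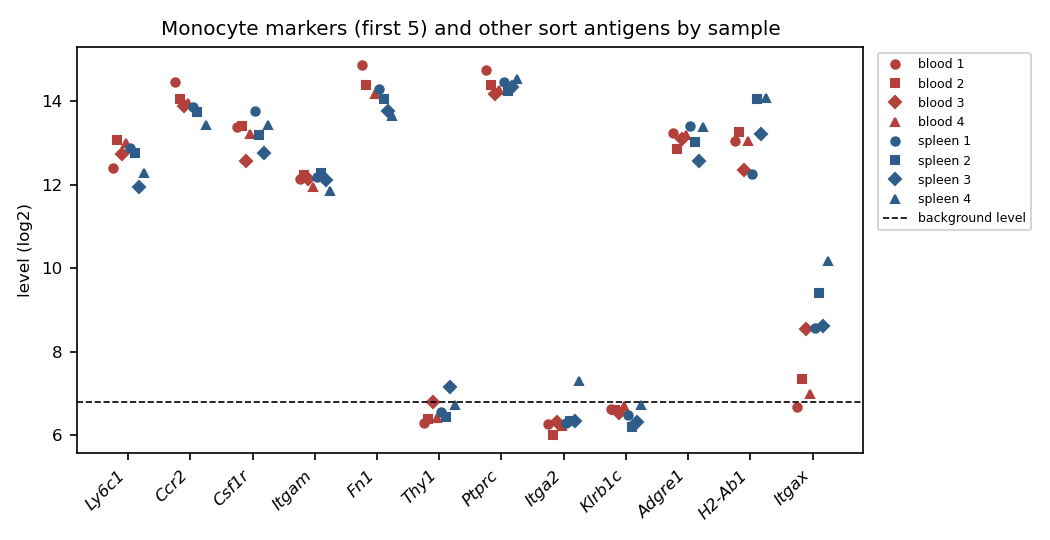
Level (log2) of the 5 monocyte markers and of other antigens used in the sort, with a point for each sample that has a value (blood in red, spleen in blue) and the background level of 6.8 as a dashed line. The markers lie between 11.86 and 14.86, Thy1, Itga2 and Klrb1c lie near the line, and Itgax spreads from 6.68 to 10.19.

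The 25 brightest genes with a symbol had means from 14.95 to 16.70 and came from several functions. Actb, cytoplasmic actin, led the genes with a symbol and had a mean of 16.70 ± 0.22 (SD, n = 8): 16.65, 16.95, 16.65 and 16.39 in blood, with 16.94, 16.95, 16.48 and 16.58 in spleen. Fth1, the heavy chain of the iron store ferritin, was 15.67, 15.56, 15.62 and 15.60 in blood, with 15.49, 15.87, 15.64 and 16.04 in spleen. The 4 blood values of Fth1 spanned about 0.1, and spleen held both the lowest and the highest value.

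Among the other genes of the 25 brightest were Rps18 (15.74), Rpl41 (15.72), Rps21 (15.55), Rpl27 (15.31), Rps2 (15.13) and Naca (15.09), which build the ribosome or act on nascent chains. Zfp36 (15.69) encodes tristetraprolin, which degrades cytokine mRNAs. Sod1 (15.54), a superoxide dismutase, Msrb1 (14.97), a reductase of oxidized methionine, and Cox17 (15.79), a copper chaperone of the respiratory chain, belong to redox and mitochondrial metabolism. H2-D1 (15.49), a class I heavy chain, and H2-DMb1 (15.18), which helps load class II molecules, serve antigen presentation. H2-D1 resembles other class I genes closely, so its probe may read more than that gene. Sirpa (14.97), the inhibitory receptor for CD47 on phagocytes, and Ahnak (15.59), a giant scaffold protein, were also in this group. The SDs of the 25 ran from 0.11 for Sod1 and H2-D1 to 0.63 for Ptms, which was 14.54 in spleen 3 and 15.58 to 16.47 in the other 7 samples.

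Several transcripts with very bright probes are not in this ranking, because the table holds no value for them in many samples. Empty cells were more frequent on bright spots. On the 5 matching arrays, 1.42% to 3.46% of all probes were empty, but of the 100 probes with the highest scanner signal on the same array 39 were empty in blood 4, 62 in spleen 1, 56 in spleen 2, 27 in spleen 3 and 42 in spleen 4. Beyond rank 10000 the share was 1.17% to 2.70%, and as most probes lie there, only 89 to 252 of the 583 to 1426 empty cells of an array were among its 1000 brightest probes. Of the empty cells, 98.1% to 99.8% carried the scanner software's flag for an outlier of the background population. Of 554 genes without any probe of 7 values, 100 stood among the 280 genes that make up the top 1% by scanner signal, and 175 in the top 10%.

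**Figure D2:**
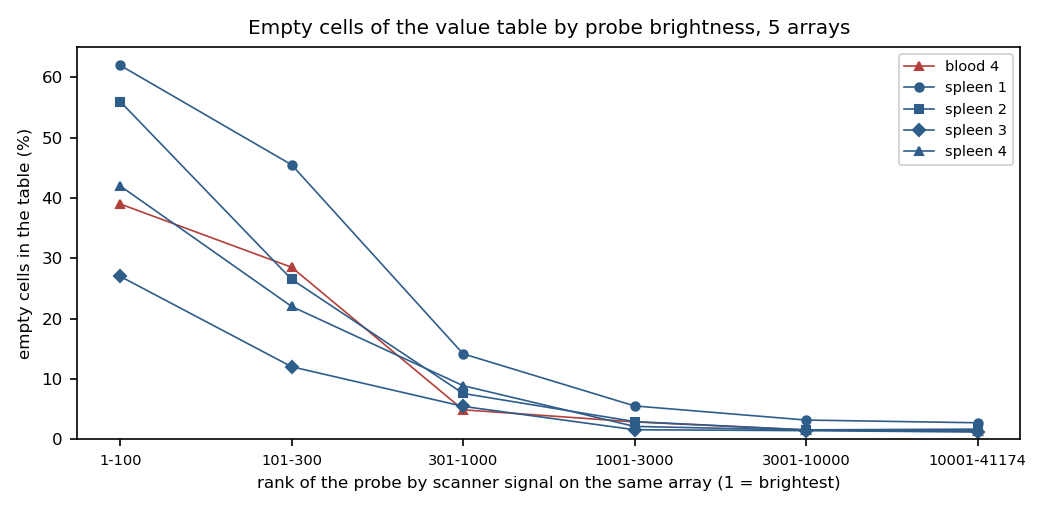
Percent of probes with an empty cell in the authors' table (vertical axis) by the probe's rank of scanner signal on the same array (horizontal axis, 1 = brightest), with 1 line for each of the 5 matching arrays. The share lies between 27% and 62% for ranks 1 to 100 and falls to at most 3.16% beyond rank 3000.

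The genes left out this way are described by the scanner signal of their brightest probe, as log2 above each array's 75th percentile, and they were chosen after their values were seen. On this scale Actb stood at 7.87. Lars2, a mitochondrial leucyl-tRNA synthetase, had no value in the table and the highest scanner level of all genes: 9.49 in blood 4 and 9.11, 9.29, 10.23 and 9.26 in spleen 1 to 4. S100a4, a calcium-binding protein of motile cells, had 2 values and a scanner level of 8.21. Lyz2, the lysozyme of myeloid cells, had 5 values and stood at 8.18 in blood 4 and 7.86, 8.09, 8.73 and 7.67 in spleen. Spleen 3 was highest for Lars2 and for Lyz2, and the matching arrays hold a single blood sample, so no tissue comparison was made.

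Other genes of innate immunity were hidden in the same way. Tyrobp, the DAP12 signalling chain of many myeloid receptors, had 3 values and a scanner level of 6.92. Ctss, the cathepsin that processes the invariant chain, had 6 values and stood at 6.75 with an SD of 0.07 (n = 5). Ifitm3, an interferon-induced barrier to virus entry, had 4 values and stood at 6.80. Chil3, a chitinase-like protein of Ly-6C-high monocytes, had 1 value and stood at 7.18. F13a1, a coagulation factor chain, stood at 6.40 with 5 values, Plac8 at 6.20 with 4, Cd74, the invariant chain itself, at 5.82 with 6, and Nr4a1, an immediate early nuclear receptor, at 6.68 with 1. Gpx1, a glutathione peroxidase, and Tmsb4x, which binds actin monomers, stood at 7.07 and 7.17. S100a9, the partner of S100a8 in calprotectin, differed from these: it was 4.39 in blood 4 and 7.38, 7.49, 9.23 and 7.73 in spleen. By list, the rule left out 9 genes of the large and 8 of the small ribosomal subunit, 7 of the actin cytoskeleton, 4 of lysosome and granule enzymes and 3 of the S100 family. It also left out 3 proteasome subunits, 2 growth factor and cytokine receptors, 2 monocyte transcription factors and 1 translation factor. Ranks within lists below cover only the members kept, unless a gene is named as left out.

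The same gap also gave a few genes a dim probe in place of a bright one. Myh9, the heavy chain of nonmuscle myosin, was listed at 6.95, the lowest of the actin cytoskeleton genes, while its other probe, with 6 values, had a mean of 14.75. Rpl37 was listed at 6.91 and its other probe at 14.64, and Rps13 at 7.59 against 14.31. These 3 low levels are those of the dimmer probe. Which probe of a gene reads its transcript was not tested.

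Probe sequence accompanied a part of the highest levels. Probes that hold a run of at least 4 TG repeats (TGTGTGTG as printed, 5′ to 3′ on the probe's own strand) were 0.248% of all probes and 14 of the 100 brightest, with a median level of 11 against 7.35 for all probes. With at least 5 repeats, the 18 probes had a median of 14.51, and 9 of them were among the 100 brightest. The longer motif contains the shorter. The complement, ACACACAC, gave a median of 8.63 over 63 probes. Where a gene had a probe with TGTGTGTG and another without it, the TG probe was the brighter for 37 of 50 genes. Over all 50, the median difference, TG probe minus the brightest other probe, was 2.01.

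The next lines show 30 bases of each probe for genes in which this matters, with TG repeats of 3 or more in capitals. Positions are those of the whole probe on mm7 in the scanner files, which give no exon or intron annotation.

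Itgb3, brightest probe, chr11:104776217-104776287, plus strand: ggacaattTGTGTGTGTGTGTatgggtggg

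Itgb3, second probe, chr11:104779399-104779458, plus strand: aacatcagagtctttgtccatttttggttg

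Dcaf12l2, brightest probe, chrX:39458712-39458771, minus strand: tgcctgatTGTGTGTGTGTGTGagtgattt

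Dcaf12l2, second probe, chrX:39457912-39457971, minus strand: agcgctaatgaaatctgacataaattttca

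Bcorl1, brightest probe, chrX:43499948-43500007, plus strand: cttttaacTGTGTGTGTGTGTtttgttccc

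Syn1, brightest probe, chrX:19353787-19353846, minus strand: ctccctcggccgccagccctggggccacgc

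Syn1, second probe, chrX:19293917-19293976, minus strand: gctgtctttaaatatgcaaactccacccat

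Itgb3, the beta chain of the platelet fibrinogen receptor, had a mean of 16.09 by its TG probe and 10.48 by its second. Its TG probe read 16.38, 15.94, 16.23 and 16.23 in blood, with 16.03, 15.57, 16.00 and 16.32 in spleen, and its second probe 10.42, 11.09, 10.73 and 10.17 in blood, with 10.08, 10.43, 10.66 and 10.28 in spleen. Both probes were above the background level everywhere, and their means lay more than 5 log2 units apart. Dcaf12l2 read 16.62 by the TG probe and 6.55 by the other, which lies below the background level, and Bcorl1, a corepressor, read 15.39 and 8.58.

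Levels also went with the probes' GC content. The median level was 6.32 for probes under 30% GC, 7.54 from 40% to under 50%, and 11.02 at 70% or more, and the Spearman correlation over all probes was 0.36. Syn1, a neuronal synapsin, ranked high at 14.39 through a probe of 81.7% GC, while its 3 other probes, of 25% to 45% GC, had means of 6.08 to 7.09. Prm1, a sperm protamine, was 11.04 by a probe of 70% GC and 6.94 and 6.66 by its others. Among the 25 brightest genes, Ptms and Cox17 were read by probes of 85% and 78.3% GC. Bcas1, also of the 25, was 15.90 by a probe of 41.7% GC and 7.03 by its other probe. The part of probe composition in any single level was not tested.

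Of 51 gene lists, 17 had a median at or above the 90th percentile of the genes and are called bright, 19 lay between there and the 50th percentile and are called mid-level, and 15 lay below it and are called dim. None of the 22 lists of other lineages was bright.

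**Figure D3:**
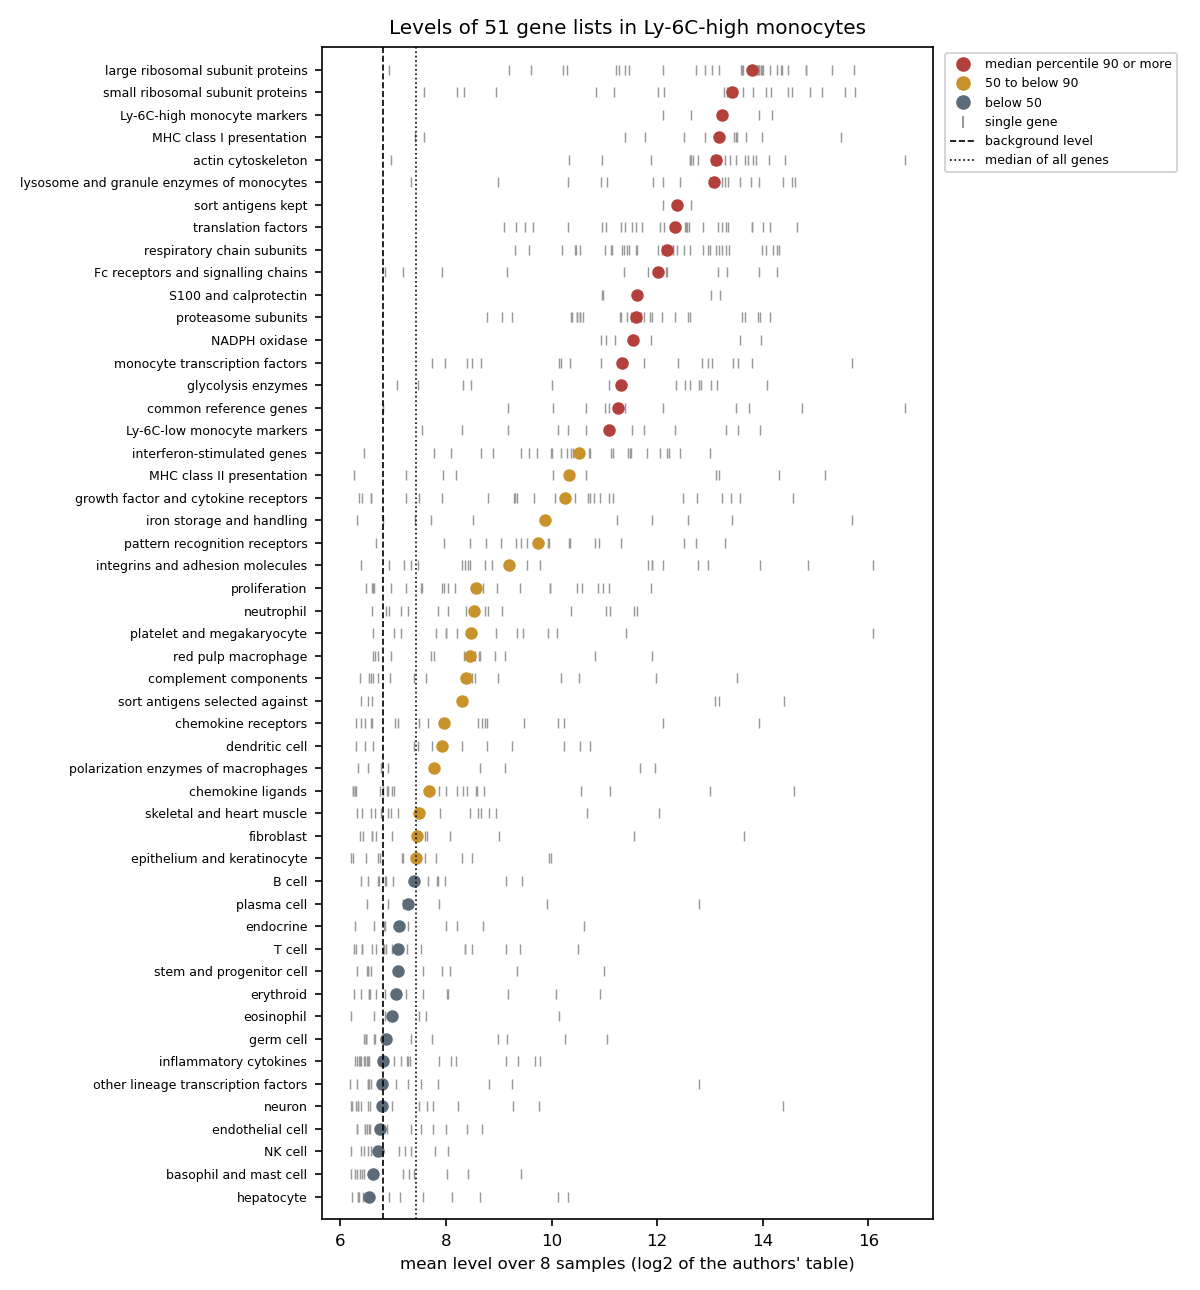
Mean level over the 8 samples (log2) of every measured member (grey ticks) and the list median (points, coloured by band) for 51 gene lists, with the background level of 6.8 (dashed) and the median of all genes, 7.43 (dotted). Ribosomal, monocyte, class I, actin and lysosomal lists lead, and the hepatocyte list, at 6.54, has the lowest median.

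Protein synthesis led the bright programs. The large ribosomal subunit list had a median of 13.80, with 35 of 36 measured members at the background level on all arrays, against 50.3% of all genes. Its median lay between 13.52 in spleen 3 and 13.85 in blood 1, and the small subunit list had a median of 13.42 with 23 of 24 members. Translation factors had a median of 12.33 over 28 members, all of them above the background level. They were led by Eef1a1 (14.65), which brings tRNAs to the ribosome, and Eef1d (14.14). Eif3h, left out with 6 values, had a mean of 14.53. Respiratory chain subunits had a median of 12.19 over 39 members, all above the background level, with Cox4i1 at 14.31 and Atp5h at 14.27. Proteasome subunits had a median of 11.59. Of those with at least 7 values, the 2 brightest, Psmb9 (14.14) and Psmb10 (13.96), are subunits of the immunoproteasome. Psme1 and Psmb6, left out of the list with 6 and 4 values, had higher means of 14.63 and 14.29. Glycolysis enzymes had a median of 11.32, from Aldoa, aldolase, at 14.07 to the neuronal enolase Eno2 at 7.08.

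Some promoters of these ribosomal genes held a motif that the ranking did not use. RefSeq promoters (GRCm38.p6, a window around the start) were matched for 46 of 60 ribosomal genes, and 11 of them (23.9%) held CCGGAAGT, the core of an ETS-type motif, on either strand, against 5.97% of all 14351 promoters matched and 8.14% of those of genes at the background level on all arrays. The 100 bases before the start are shown for 3 of them, and for a gene below background with a TATAAA, with the motif in capitals. An occurrence of one motif can share an end base with the other.

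Rps18, chr17:33955666-33955765, minus strand: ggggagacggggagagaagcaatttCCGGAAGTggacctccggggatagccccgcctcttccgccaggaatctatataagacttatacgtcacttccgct

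Rpl41, chr10:128549169-128549268, minus strand: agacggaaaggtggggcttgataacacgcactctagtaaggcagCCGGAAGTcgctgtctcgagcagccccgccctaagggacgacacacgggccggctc

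Rpl19, chr11:98026610-98026709, plus strand: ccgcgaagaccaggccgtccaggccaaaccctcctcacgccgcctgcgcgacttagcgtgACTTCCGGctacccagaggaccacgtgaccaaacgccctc

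Cyp2e1, chr7:140763719-140763818, plus strand: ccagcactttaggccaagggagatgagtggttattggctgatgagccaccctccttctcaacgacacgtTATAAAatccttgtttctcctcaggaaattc

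Rps18 had a mean level of 15.74, Rpl41 of 15.72 and Rpl19 of 14.13, while Cyp2e1, a cytochrome of hepatocytes, had 6.22 and was below the background level in every sample. Over all genes, a ratio of observed to expected CpG of 0.6 or more was found in 66.1% of 8487 promoters of genes at the background level on all arrays and in 24.2% of 2365 promoters of genes at it on none. TATAAA, on either strand, was in 8.88% and 21.2% of them, and in 12.0% of all promoters. Of the 500 brightest genes, 320 had a matched promoter, with TATAAA in 14.7% and CCGGAAGT in 6.56%. The share of TATAAA thus did not fall steadily with the level. In the myeloid lists 41.4% of 140 promoters reached that CpG ratio and 17.1% held TATAAA. A match is a description of letters and not of a site.

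The programs of a phagocyte were bright as well. Lysosome and granule enzymes had a median of 13.08, with 19 of 20 members above the background level on all arrays. Ctsb, cathepsin B, had a mean of 14.61, and 7 values of 14.44, 16.00, 14.12 and 14.47 in blood, with 14.33, 14.38 and 14.51 in spleen 2 to 4. Blood 2 stood 1.5 above the next sample, and the other 6 lay within 0.4 of each other. Cst3, the cathepsin inhibitor cystatin C, was 14.56, and Psap, the precursor of the saposins, was 14.38. Ctse, cathepsin E, was the dimmest at 7.33, and was 9.12 in blood 2.

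The actin cytoskeleton list had a median of 13.11, with Actb, Rhoa (14.43), a GTPase of contraction, and Gsn (14.11), which severs filaments, at its top. In the NADPH oxidase list all 6 members were above the background level: Cybb, the catalytic subunit, at 13.96, and Ncf4 at 13.57, down to Ncf1 at 10.93. Fc receptors and their signalling chains had a median of 12.01. Fcer1g, the common gamma chain, was 14.27, Plcg2, a phospholipase, 13.93, and Fcgr1, the high-affinity IgG receptor, 13.15, while Fcer2a, the IgE receptor of B cells, was 6.84. Class I presentation had a median of 13.17, and its dimmest members were the peptide transporters Tap2 (7.42) and Tap1 (7.58).

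Transcription factors of monocytes had a median of 11.34 and all 18 were above the background level on all arrays. Zfp36 aside, which is an RNA-binding protein kept in that list, the highest were Junb (13.79), Klf2 (13.53), Spi1 (13.44), the PU.1 factor of myeloid cells, and Cebpa (12.96). Another probe of Junb, which holds TGTGTG, had 6 values and a mean of 16.68. Irf8, which directs monocyte development, was 12.39, and Egr2, at 7.73, was lowest. Factors of other lineages formed a dim list with a median of 6.79: Gata2 was 6.32 and Gata3 6.52, both below the background level in every sample. Of its 16 members 6 were at the background level on all arrays, with Xbp1, a factor of the unfolded protein response, at 12.80, Batf3 at 9.26 and Tbx21 at 8.82.

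Mid-level programs held both bright and dim genes. Among chemokine receptors, Ccr2 at 13.92 was followed by Cxcr4 (12.11), the receptor for marrow retention, Xcr1 (10.24) and Cx3cr1 (10.12), the receptor that is higher in Ly-6C-low monocytes, while Cxcr1 (6.30) and Cxcr5 (6.40) were below the background level everywhere. Cxcr4 was 9.65, 12.53, 12.80 and 11.87 in blood, with 11.79, 12.51, 12.34 and 13.41 in spleen, with blood 1 alone far below the others. Of the growth factor and cytokine receptors with at least 7 values, Ifngr1 (14.56), Tnfrsf1b (13.56), Csf2ra (13.40) and Csf1r (13.22) were highest. Il17ra and Il10ra, left out with 4 and 5 values, had means of 15.28 and 13.53. In the same list Il1r1 (6.35), Il7r (6.40) and Kit (6.58) were below the background level in every sample. The pattern recognition list had a median of 9.74 and 20 of 21 members above the background level on all arrays. Nod1 (13.27) and Tlr9 (12.74) were its brightest, and Tlr3 (6.67) its dimmest.

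Interferon-stimulated genes were detected without stimulation. The list had a median of 10.51, with 27 of 29 members above the background level on all arrays. Oasl2 had a mean of 12.44 and Ifit3 of 12.22, and Iigp1 was lowest at 6.45. Class II presentation had a median of 10.33. H2-DMb1, H2-DMa (14.31), H2-Ab1 and H2-Aa (13.11) were bright, and H2-Ea, the E alpha chain that C57BL/6 mice do not make, was 6.25 and below the background level in all 8 samples.

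The 25 inflammatory cytokines had a median of 6.81, 10 of them reached the background level on all arrays (50.3% of all genes did) and 9 on no array (22.9% of all genes), among them Il10 (6.50), Il12b (6.36), Il23a (6.44), Ifnb1 (6.47) and Csf2 (6.52). Il6 was 6.38 and Tnf 7.27, and Il1b, an early cytokine of monocytes, was 9.36. The brightest were Il27 (9.77) and Tgfb1 (9.69). Of the chemokine ligands with 7 values Ccl6 was brightest, with a mean of 14.60: 14.59, 14.66 and 14.72 in blood 2 to 4 and 14.90, 14.63, 14.05 and 14.63 in spleen. Ccl9, left out of the list with 5 values, had a mean of 14.69. Ccl2, the ligand of CCR2, was 11.10, and Ccl25, a thymic and gut chemokine, was 13 by a probe whose level its 2 other probes, at 6.94 and 6.90, did not share. Among enzymes and products by which polarized macrophages are told apart, Nos2 (6.34), Retnla (6.53) and Arg1 (6.78) were dim. Chil4 (11.95) and Msr1 (11.68) of the same list were far higher. Of the 8 members measured, 4 were at the background level on all arrays, against 50.3% of all genes.

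Lists of other lineages were dim or mid-level. The list of Ly-6C-low monocyte markers, kept apart from these, was bright, with a median of 11.09 at percentile 90.4. Of its 12 members, 10 were at the background level on all arrays, against 50.3% of all genes. It left the bright band when probes were averaged. The T cell list had a median of 7.09, the B cell list 7.40, the NK cell list 6.71, the erythroid list 7.06 and the endothelial list 6.75, all below the median gene. Their dimmest members named here, Cd28 (6.26), Gzmb (6.20) and Tek (6.32), were below the background level in all 8 samples. Others were at it on every array, with Cd8b1 at 10.49 and Cd4 at 9.41 of the T cell list, Cd160 at 8.05 of the NK cell list and Flt1 at 8.69 of the endothelial list. In all, 8 of 21 T cell and 7 of 15 B cell genes were at the background level on all arrays, against 50.3% of all genes. The lists of neutrophils (8.52), platelets (8.47) and red pulp macrophages (8.45) stood above the median gene. Acta2, smooth muscle actin, was 13.64 by 1 probe and 6.13 to 8.25 by its 4 others. Hnf4a, a liver factor, was 10.12 by 1 probe and 6.40 and 6.26 by the others, and Myod1, a muscle factor with 1 probe, was 12.03. These levels were not shared by other probes of the same gene, or, for Myod1, cannot be checked with another probe.

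The spread among samples depended on the level. The median SD over genes was 0.34, and by mean level it was 0.12 below 6.8, 0.41 from there to 8, 0.56 from 8 to 10, 0.43 from 10 to 12, 0.31 from 12 to 14 and 0.27 above. An SD of 1 or more was reached by 902 of 27408 genes (3.29%), of which 488 lay between 8 and 10 and none at 14 or more. In 29 of 51 lists no member reached it, among them ribosomal proteins, translation factors, respiratory chain, glycolysis, proteasome, actin, lysosome, NADPH oxidase, Fc receptor and both class I and class II lists. By contrast it was reached by 11 of 25 proliferation genes, 6 of 17 neutrophil genes, 5 of 14 red pulp macrophage genes and 5 of 15 platelet genes.

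**Figure D4:**
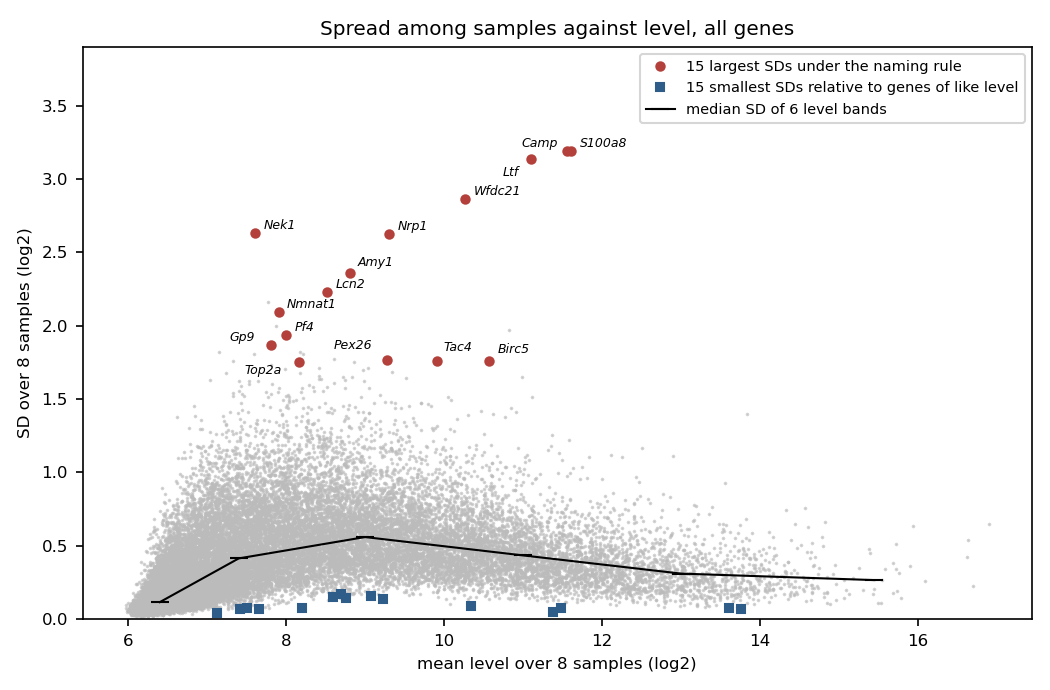
SD over the 8 samples (log2) against mean level (log2) for 27408 genes, with 15 genes of large SD in red (those with a gene symbol, 8 values and at least 4 at the background level), the 15 of smallest SD relative to genes of like level in blue, and the median SD of 6 level bands as a line. The median SD is highest, 0.56, between levels 8 and 10, and S100a8 and Camp lie at 3.19.

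Variable genes were ranked by SD among those with a gene symbol, 8 values and at least 4 at the background level. The first of them, S100a8, Camp and Ltf, are members of the neutrophil list. S100a8, a chain of calprotectin, had an SD of 3.19 and values of 8.47, 6.79, 10.50 and 9.54 in blood, with 13.99, 13.66, 15.25 and 14.70 in spleen. Camp (cathelicidin), Ltf (lactotransferrin), Wfdc21 and Lcn2 (lipocalin 2) had SDs of 3.19, 3.14, 2.87 and 2.23 and did not overlap between the tissues, and blood 2 was the lowest sample for each of the 5. Of the 17 neutrophil genes measured, 7 were at the background level on all arrays (41.2%, against 50.3% of all genes), and the list median ran from 6.79 to 9.53 over the samples. Other members varied less: Mmp8 had an SD of 0.32, Cd177 of 0.41 and Csf3r of 0.21. Elane, neutrophil elastase, was 9.16 in spleen 3 and 6.61 to 7.26 in the other 7 samples. The part of neutrophils in these values was not tested. Birc5, survivin, and Top2a, topoisomerase of dividing cells, had SDs of 1.76 and 1.75. Birc5 was 9.05, 8.83, 9.14 and 9.40 in blood, with 10.40, 11.99, 12.87 and 12.92 in spleen.

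A different pattern was a level set by 1 sample. Nek1, a kinase of cilia, was 14.09 in spleen 2 and 6.33 to 7.12 in the other 7 samples. Nrp1, neuropilin 1, was 15.52 in blood 2 and 7.76 to 9.92 elsewhere. Nmnat1, a nuclear enzyme of NAD synthesis, was 12.77 in spleen 1 and 6.55 to 8.68 elsewhere. Other probes of these genes did not all follow. The second probe of Nmnat1 gave 12.55 in spleen 1 and correlated with the first by 0.99 over the 8 samples. The second probes of Nek1 and Nrp1 read 7.04 in spleen 2 and 8.71 in blood 2.

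Amy1, an amylase, was 7.86, 7.08, 7.34 and 7.52 in blood, with 8.74, 10.71, 13.86 and 7.31 in spleen, with spleen 3 far above the rest. Its second probe correlated by 0.99. Pf4 and Gp9, of platelets, differed among the blood samples: Pf4 was 6.39 in blood 1 and 10.64, 10.07 and 10.23 in blood 2 to 4, and 6.30 to 7.16 in spleen, while Gp9 was 9.61 in blood 2, 11.42 in blood 3 and 8.18 in spleen 2. Tac4, a tachykinin precursor, and Pex26, a peroxisomal protein, spread without regard to tissue: Tac4 was low in blood 2 (7.27) and spleen 1 (7.54) and 8.94 to 11.93 in the rest.

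**Figure D5:**
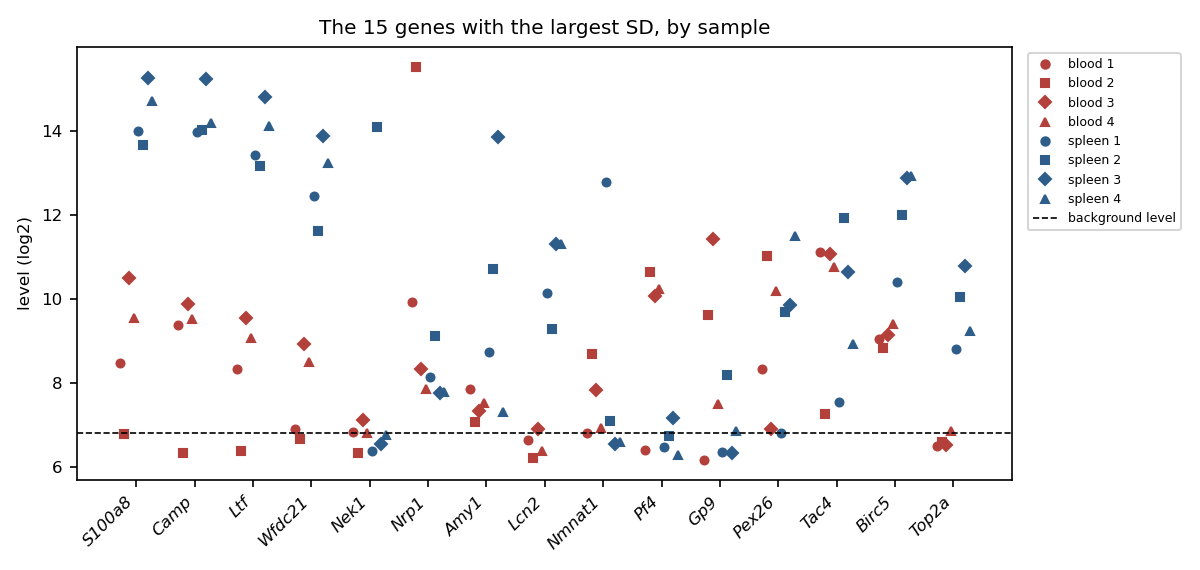
Level (log2) of the 15 genes with the largest SD under the naming rule in each of the 8 samples (blood in red, spleen in blue), with the background level of 6.8 as a dashed line. The first 4 genes and Lcn2, Birc5 and Top2a separate the tissues, while Nek1, Nrp1 and Nmnat1 each have 1 high sample.

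Agreement between probes was limited in general. Over 4300 genes with 2 probes at the background level on at least 4 arrays each, the median correlation between probes over the samples was 0.12, and 10.9% exceeded 0.7. For the 211 such genes with an SD of 1 or more the median was 0.22 and 17.5% exceeded 0.7. These are descriptions over 8 samples, which share arrays and normalization. A sample stood at least 2 above the next for 194 genes, from 13 genes in blood 4 to 48 in spleen 1. A second probe was available for 58 of them, and for 6 it was highest in the same sample by at least 1.

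Variable genes of 1 tissue were more variable in the other than genes in general. The 100 genes with the largest SD over the 4 blood samples had a median SD of 0.79 in spleen, where all 16045 genes had 0.42, and 32% of them reached an SD of 1 there, against 6.51%. The 100 chosen in spleen had a median of 0.65 in blood, against 0.41. The chosen genes and all genes were not matched for mean level, on which the SD depended, and the part of level was not tested. The lists of 100 shared 6 genes, which is 6% of each: Pex26, Tac4, Cercam, Csrp1, Nob1 and Fbxo31.

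The steadiest genes were taken relative to genes of like level, 5 from each of 3 ranges of the mean level. Myo1f, a myosin of leukocytes, had an SD of 0.05 around 11.38 and a range from 11.33 to 11.46. Soat1, which esterifies cholesterol, was 13.85, 13.76, 13.75 and 13.80 in blood, with 13.68, 13.86, 13.66 and 13.76 in spleen, and Rpl6, of the ribosome, had an SD of 0.07 around 13.61. Mfsd6 (11.48) and Churc1 (10.34) completed the upper range. Of genes used as references, Actb had an SD of 0.22 and Tfrc, the transferrin receptor, one of 0.76 around 6.81. The steadiest genes of the other ranges had means from 7.12 to 9.22, and among them were Zfp42 (7.12, SD 0.04), Olfr598 (7.66, SD 0.07), Oxt (9.22, SD 0.14) and Msi1 (8.70, SD 0.17).

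Tissue and sample number were tested on 17666 genes. In limma's test 0 genes (0%) differed between tissues after Benjamini-Hochberg adjustment, 963 (5.45%) had an unadjusted p under 0.05, and the tissues did not overlap for 570 (3.23%). The smallest adjusted p, 0.0511, was shared by 7 genes: S100a8, Camp, Ltf, Wfdc21, Lcn2 and Top2a, with higher means in spleen, and Ctla2b, with a lower one (by the fit, -2.24 on the log2 scale). Variants of the test called up to 14 genes. For an effect of the sample number, shared by both tissues, 0 genes (0%) passed in limma and 1892 (10.7%) had an unadjusted p under 0.05, with a smallest adjusted p of 0.439. The genes of smallest p included Syt11, a synaptotagmin, at 10.21, 8.12, 7.62 and 7.66 in blood, with 10.70, 8.13, 7.77 and 8.36 in spleen, where number 1 was highest in both tissues. In Prepl, number 3 was highest in both, at 10.77 and 10.35.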

How the data were processed

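The authors' table holds log2 values per probe, deposited for 8 samples; the submitters' processing notes name limma, and its scale is not explained in the sources used here. The scanner files hold spot intensities, deposited as written by Feature Extraction 9.5.1.1 per the file headers, with probe positions on mm7. Control spots were left out. A gene is its brightest probe with at least 7 values, and 22951 probes were named through RefSeq. The background level, 6.8, is the lowest table level from which at least 95% of probes carry the scanner's well-above-background flag on each matching array. Scanner levels are log2 above each array's 75th percentile. Tissue and sample number were tested with limma 3.58.1 (R 4.3.3, lmFit and eBayes, Benjamini-Hochberg, threshold 0.05), after checks on simulated data. Python 3.11.15 and pandas 2.3.3 were used otherwise. The number of arrays limits the precision, and p-values measure only the spread between these samples.

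Named genes were the markers, the 25 brightest with a symbol, the 2 highest and the lowest of each list, up to 3 bright members of lists of other lineages, the 15 most and 15 least variable, and 5 with the smallest p for sample number; exceptions are named as such, and a few genes under this rule are not reported here. Members and lists were chosen with earlier results of these data known. Alternatives were the probe summary, the scanner files, normexp, the filters, array weights, sample number as a block and each sample left out.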

Additional observations from a re-analysis of the deposited data

Results flagged for a closer look

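For 328 groups of 4 samples (genes and list medians named in the text, in blood or in spleen), the highest or lowest sample was set against the other 3 by Dixon's criterion. It stood apart in 27 of them (8.23%). Chance gives about 1 in 20 for groups taken at random, a rate that does not hold here, since some of the genes were chosen for their spread and list medians repeat genes.

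Neutrophil and platelet genes were among them in blood. Camp was 6.34 in blood 2, against 9.37 to 9.87 in the other blood samples. Pf4 was 6.39 in blood 1, against 10.07 to 10.64, and the median of the platelet list was lowest in the same sample, at 8.28 against 9.42 to 9.61. Single high samples were Nek1 at 14.09 in spleen 2, Nmnat1 at 12.77 in spleen 1, and Ctse, cathepsin E, at 9.12 in blood 2. Tac4 was low in blood 2, at 7.27, and Ptms in spleen 3, at 14.54.

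Among receptors and antigens, Itga2 was 7.30 in spleen 4 against 6.30 to 6.34 in the other spleen samples, and Tlr3 and Tlr9 were highest in spleen 1, at 8.12 and 13.17. Mmp8, a neutrophil collagenase, was 11.58 in spleen 1, Tfrc was 7.16 in blood 4, and Cd8b1, a T cell antigen, was 11.29 in blood 3 against 10.19 to 10.33 in the other blood samples. Cxcr1 at 6.54 in blood 2, H2-Ea at 6.28 in blood 3 and Il1r1 at 6.21 in blood 3 stood apart below the background level, over gaps of at most 0.3.

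Among bright genes, Rps21 was 16.15 in spleen 2, Ahnak 15.66 in spleen 2, Cox17 15.60 in spleen 3 and Psmb10 14.27 in blood 2. Prm1, by its GC-rich probe, was 11.33 in spleen 4, and Rps13, by its dim probe, was 9.13 in spleen 4. Of the list medians, translation factors were lowest in blood 2 at 11.89, respiratory chain subunits in spleen 3 at 12.04 and neuronal genes in blood 3 at 6.60, while erythroid genes were highest in spleen 4 at 7.26.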

How the results depend on the processing

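Of the 100 brightest genes, 60 were shared when probes were averaged, 35 with the scanner files, 30 with the 5 matching scanner files, 32 with normexp and 33 with no minimum of values, against 83 to 95 when 1 sample was left out. Of the 100 most variable genes, 53 were shared with the 5 matching columns, 12 with the scanner files, 21 with the 5 matching ones and 42 with the median absolute deviation, against 75 to 84 when 1 sample was left out. The tissue test called 0 genes, but 4 with the scanner files, 4 with normexp, 9 with an intensity trend and 9 with array weights. Unless the 5 matching files are named, the scanner and normexp runs used all 8 files. Those of blood 1, 2 and 3 hold other arrays than the table's columns. With the sample number as a random block it called 14 (correlation 0.21) and with a fixed block 1. Leaving out 1 sample gave 0 to 3 calls, with 3 without blood 1 or spleen 1. The causes of these differences were not tested. Same-numbered samples of the tissues deviated together by 0.0904 to 0.144, against -0.115 to 0.0337 for other numbers, so every sample correlated best with its own number, but not every pair passed 0.1 and the numbers were not treated as pairs. The number of bright lists, of genes above background and of number effects kept within 1.5 times in every alternative run. Single lists did change band, up to 6 of 51 in a run. Glycolysis enzymes left the bright band with the scanner files and with normexp. With the scanner files the B cell, plasma cell, fibroblast, epithelium and class II lists changed band too. The 7 genes that shared the smallest adjusted p for tissue kept the sign of their difference in all 17 alternative runs of that test. They were chosen by that p, and a reversal of other results was not tested. Levels of single lists moved by less than the spread in 606 comparisons and by more in 108, and those of single genes in 797 and 206.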

Other observations

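Amy1 led to a look at other digestive enzymes of the pancreas, in a list of 18 genes put together after the values were seen. The list median was 10.16 in spleen 3 and 7.50 to 8.46 in the other 7 samples. Clps, the colipase, was 13.21 in spleen 3 and 8.01 to 8.81 elsewhere. Pnlip, the pancreatic lipase, was 11.51 in spleen 3 and 6.25 to 7.67 elsewhere, and Prss2, a trypsinogen, was 10.54 against 6.65 to 6.85. Amy2 was 11.77 and Cpb1, a carboxypeptidase, 10.40 in the same sample. Ctrb1, chymotrypsinogen, did not share this: it was 11.92 to 13.29 in all 8 samples, with 12.89 in spleen 3. The source of these transcripts was not tested.

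A few single genes of other lists also differed among spleen samples, without the rest of their lists. Jchain, which joins antibody chains, was 6.95, 9.83, 8.28 and 11.26 in spleen 1 to 4 and 6.25 to 6.30 in blood 1 to 3. Hdc, which makes histamine, was 8.53, 11.10 and 9.80 in spleen 1, 3 and 4 and 6.50 to 8.31 in blood. Each is the only member of its list with an SD of 1 or more. Irf4, listed with Jchain, was lowest in spleen 4, at 8.55, and Mcpt4, listed with Hdc, was 8.84 in spleen 3 and 10.78 in blood 2. Hbb-bt and Hba-a1, globins whose close copies may share probes, were lowest in spleen 2, at 7.91 and 7.31.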
